A study of Mus musculus with 15 samples.

Results

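The genes of MHC class II antigen presentation were followed through naive joints and 4 grades of joint swelling in mouse knee synovium, the lining tissue of the joint. The 9 genes were chosen by name for their place in the pathway: H2-Aa, H2-Ab1 and H2-Eb1 (chains of the surface molecules), Cd74 (the invariant chain), H2-DMa and H2-DMb1 (peptide exchange), Ctss and Ifi30 (endosomal enzymes) and Ciita (the transcriptional coactivator). Of these 9 genes, 8 had at least 1 probe set annotated to that symbol alone, 16 probe sets in all, out of 18193 genes named on the array. The 2 probe sets listed with H2-DMb1 are listed with H2-DMb2 as well, so H2-DMb1 has no value of its own here. The brightest probe set of each of the 8 genes passed the filter on low signals, as did 14 of the 16 probe sets.

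The arrays hold total RNA of knee joint synovium from 5 groups of 3 samples: naive joints, labelled healthy, and joints of mice with collagen-induced arthritis (CIA) that had no, mild, moderate or severe swelling. CIA is an arthritis model driven by an immune response to type II collagen, a protein of cartilage. Here 100 µg of it was given with the adjuvant the labels call FCA on day 0, and another 100 µg was injected into the peritoneum (i. p.) on day 21. The labels repeat this immunization text for the naive samples too, and it is taken here as text written once for all samples; read literally, it would change what a comparison with naive means. Strain, age, sex, the day of sampling and the number of animals behind a sample are not stated in the sources used here, so the p-values cover only the variation among these samples, part or all of which may be technical. Array medians lay between 36.3 and 47.6 intensity units, and with 3 arrays per group precision is limited. The ratio of 3' to 5' actin probe signals, a measure of RNA integrity, was 0.89 to 1.03 in naive joints, 1.07 to 1.16 without swelling, 1.13 to 1.19 in mild, 1.19 to 1.27 in moderate and 1.21 to 1.27 in severe swelling. The actin ratio moved with swelling. The same ratio for Gapdh overlapped, at 0.83 to 0.89 in naive joints and 0.83 to 0.96 in severe swelling. The part of either ratio in the results was not tested. On the first principal component, which held 70.27% of the variance, no-swelling replicate 3 (-68.75) lay below all naive arrays (-66.87 to -62.65), and mild replicate 2 (-7.42) lay apart from mild replicates 1 (18.73) and 3 (36.02). Results that rest on these 2 arrays are given below with and without them.

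MHC class II molecules are pairs of an alpha and a beta chain that carry peptides of engulfed proteins to the cell surface, where CD4 T cells read them. The pairs are built around the invariant chain Cd74, which is cut down by proteases such as cathepsin S (Ctss) in the endosome; H2-DM then helps to exchange the remaining fragment for antigen peptide, and Ifi30 (GILT) reduces the disulfide bonds of antigens. Dendritic cells, macrophages and B cells carry the pathway at rest, and interferon gamma induces it in many other cells through Ciita, which binds no DNA itself but is recruited by factors seated on the X and Y boxes of class II promoters.

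In the mouse genome (RefSeq, build GRCm38.p6) the chain and DM genes lie in one region of chromosome 17: H2-DMa at chr17:34119693-34139101, H2-DMb1 at chr17:34153191-34160229, H2-Ab1 at chr17:34263227-34269418, H2-Aa at chr17:34282744-34287823 and H2-Eb1 at chr17:34305867-34316674. Ctss lies on chromosome 3 (chr3:95526786-95556405), Ifi30 on chromosome 8 (chr8:70762773-70766663) and Ciita on chromosome 16 (chr16:10480014-10531064). All are protein-coding.

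The stretches just upstream of 4 of these genes are shown because the letters searched for as X and Y boxes differ in arrangement. The Ctss stretch holds neither. Each line below gives the 120 bases before the RefSeq transcription start, 5' to 3' on the gene's strand; the intervals are chr17:34305747-34305866 (plus strand) for H2-Eb1, chr17:34153071-34153190 (plus) for H2-DMb1, chr17:34287824-34287943 (minus) for H2-Aa and chr3:95526666-95526785 (plus) for Ctss. Capitals mark matches to ATTGG or its reverse CCAAT (the Y box core), to ACNGATG or its reverse CATCNGT (an X box core) and to GAAANNGAA or its reverse TTCNNTTTC (an interferon response core, searched for after the Ctss sequence was seen).
H2-Eb1: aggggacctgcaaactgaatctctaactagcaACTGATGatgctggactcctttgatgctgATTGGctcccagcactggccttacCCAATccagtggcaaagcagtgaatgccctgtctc
H2-DMb1: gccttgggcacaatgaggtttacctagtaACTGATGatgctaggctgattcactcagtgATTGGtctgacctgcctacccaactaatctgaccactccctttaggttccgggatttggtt
H2-Aa: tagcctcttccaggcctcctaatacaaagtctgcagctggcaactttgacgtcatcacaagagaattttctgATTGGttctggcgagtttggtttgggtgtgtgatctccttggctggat
Ctss: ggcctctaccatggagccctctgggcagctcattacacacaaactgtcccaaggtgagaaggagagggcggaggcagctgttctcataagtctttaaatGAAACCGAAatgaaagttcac

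The search covered both strands of the 250 bases before the transcription start in each RefSeq promoter window, and the motifs did not overlap each other where they are shown. H2-Eb1 had ACNGATG at base -88 and ATTGG at base -59, counted from the start site, and H2-DMb1 had them at -91 and -61, so that the motif starts lay 29 and 30 bases apart. An ACNGATG followed by an ATTGG on the same strand with starts 20 to 40 bases apart was found in 0.152% of all 32851 windows (50 windows). H2-Eb1 carried a further CCAAT at -35. H2-Aa had ATTGG at -48 and a reverse ACNGATG farther off, at -232, without that spacing. Other spellings of the X box were not searched for, so the lack of a match is not the lack of an X box. Ctss held GAAANNGAA at -21 and ACNGATG at -206 but no ATTGG, 1 of 2 H2-DMa windows held an ATTGG at -198, and the Ifi30 window held none of the 3 motifs. Alone, ATTGG was present in 33.9% of windows, ACNGATG in 8.31% and GAAANNGAA in 7.13%. A match describes these letters only, and the arrays measured RNA, not binding.

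All 8 measured genes were higher in swollen joints. They were higher in mild swelling than in naive joints in 8 of 8 cases at an adjusted p under 0.05, where 23.1% of all 14314 tested genes were called higher. The same count was 8 of 8 in moderate swelling against naive, with 30.9% of all genes called higher, and 8 of 8 in severe swelling against naive, with 32.3%. H2-Eb1 is counted in each of these, but it passed the filter only through the swollen arrays and no-swelling replicate 1. Its calls and its separation from unswollen joints, here and below, are therefore no separate support. The adjusted p-values come from a limma fit of log2(signal + 16) over all 15 arrays with Benjamini-Hochberg adjustment over all genes. For all 8 genes, each mild, moderate and severe array lay above each naive array, a separation that 29.1% of all tested genes showed in mild, 35.1% in moderate and 36.1% in severe swelling. The median log2 difference of the 8 genes was 1.97 in mild, 2.20 in moderate and 2.22 in severe swelling against naive, where the medians over all tested genes were 0.05, 0.06 and 0.11. Since synovium was taken whole, more cells of a type and more RNA per cell cannot be told apart in any of these values.

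**Figure D1:**
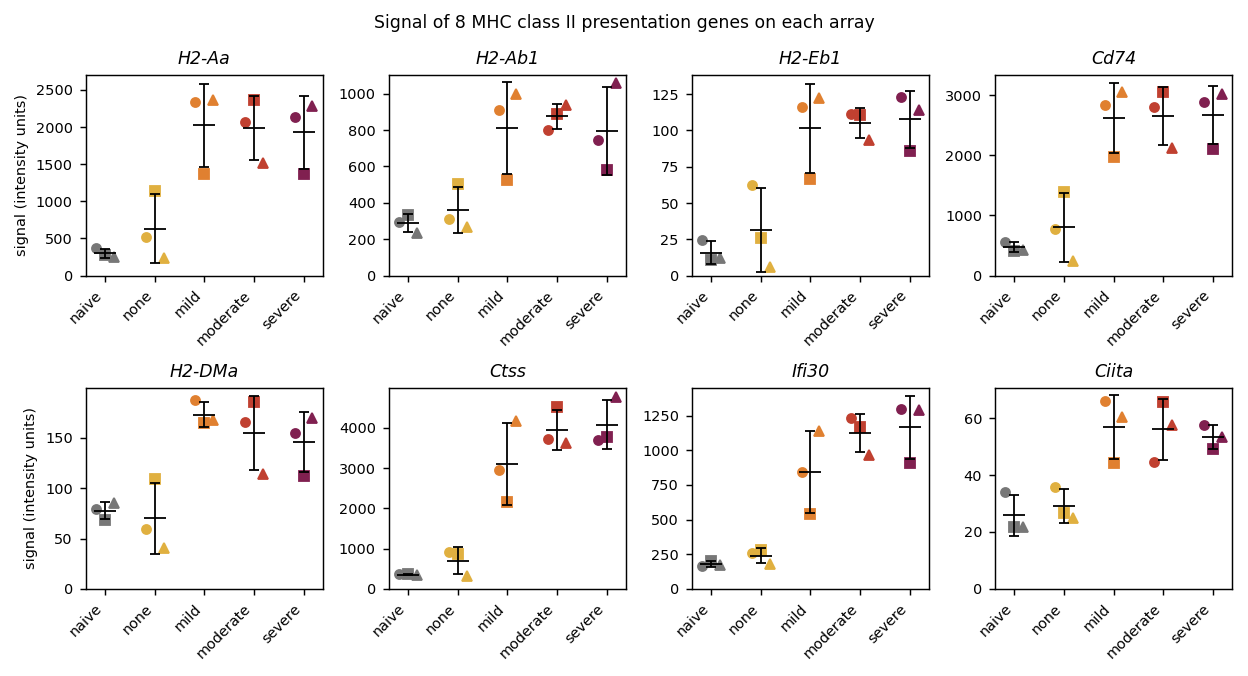
Signal in intensity units (linear axis from 0, scaled separately for each gene) of the brightest probe set of 8 genes on each of the 15 arrays, by grade of swelling. Circles, squares and triangles are replicates 1, 2 and 3, and bars show the mean and SD of 3 arrays; mild, moderate and severe arrays lie above all naive arrays in every panel, and no-swelling arrays overlap the naive ones.

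Among the surface chains, H2-Aa, the alpha chain of H2-A, gave signals of 373.5, 272.8 and 247.9 on the naive arrays and 525, 1139.5 and 234.5 on the arrays without swelling. It gave 2331.2, 1370.1 and 2363.3 in mild, 2067, 2366.8 and 1521.7 in moderate and 2130.6, 1369.4 and 2286.4 in severe swelling. Every swollen joint was above every unswollen one, and the 3 swollen grades overlapped. The severe mean was 1929 ± 491 and the naive mean 298 ± 67 (SD, n = 3 each), a log2 difference of 2.62 ± 0.40 (SE, adjusted p = 4.44e-05 with limma).

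H2-Ab1, the beta chain that pairs with H2-Aa, gave 295.2, 332.4 and 235.1 in naive joints and 312.4, 503.6 and 267.7 without swelling. Its signals were 912.6, 524.4 and 997.4 in mild, 802.7, 886.8 and 939 in moderate and 746.4, 580.4 and 1058.7 in severe swelling. The lowest swollen array, mild replicate 2, stood close to the highest unswollen one, no-swelling replicate 2. The severe minus naive difference was 1.39 ± 0.26 on the log2 scale (adjusted p = 0.000293 with limma).

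H2-Eb1, the beta chain of H2-E, was dim: 24.8, 10.9 and 11.8 in naive joints and 62.5, 26.1 and 5.6 without swelling. It reached 115.8, 66.4 and 122.2 in mild, 111.3, 110.8 and 93.3 in moderate and 122.9, 85.8 and 113.9 in severe swelling. Its naive signals lay within or below the range of the arrays' 40th percentiles (23.4 to 31.1), so these signals are at the dim end of the array. The severe minus naive log2 difference was 1.97 ± 0.35 (adjusted p = 0.000166 with limma), and it depended on the constant added before the logarithm, being 2.77 with 1 and 1.10 with 64 in place of 16.

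Cd74, the invariant chain, gave 564.4, 414.6 and 430 in naive joints and 766.7, 1391.4 and 250.2 without swelling. Its signals were 2829.8, 1967.8 and 3058.2 in mild, 2797, 3053.4 and 2115.3 in moderate and 2879, 2110.7 and 3018.7 in severe swelling. The order of the arrays within the groups was nearly that of H2-Aa, with no-swelling replicate 3 below all naive arrays for both genes. The severe mean was 2670 ± 489 and the naive mean 470 ± 82 (SD, n = 3 each), a log2 difference of 2.46 ± 0.40 (adjusted p = 8.7e-05 with limma).

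H2-DMa, the alpha chain of the peptide exchanger, gave 79.4, 68.6 and 85.3 in naive joints and 59.7, 109.6 and 40.9 without swelling. It gave 187.4, 164.7 and 167.4 in mild, 166, 185.2 and 114.1 in moderate and 154.8, 112.3 and 169.9 in severe swelling. The lowest swollen array, severe replicate 2, lay just above the highest unswollen one, no-swelling replicate 2. The severe minus naive log2 difference was 0.77 ± 0.24 (adjusted p = 0.0125 with limma). That call was lost without severe replicate 3, at 0.66 (adjusted p = 0.0543), and with the mean of the gene's 2 probe sets, at 0.33 (adjusted p = 0.0971), of which the second read signals of 1.3 to 14.7 and lay under the filter.

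Of the endosomal enzymes, Ctss, the protease that trims the invariant chain, gave 365.5, 374.2 and 333.8 in naive joints and 919.1, 859.8 and 311.9 without swelling. It gave 2954, 2162 and 4177.2 in mild, 3721.5, 4514.3 and 3609.2 in moderate and 3688.1, 3777.7 and 4767.1 in severe swelling. The severe mean was 4078 ± 599 and the naive mean 358 ± 21 (SD, n = 3 each). The log2 difference of 3.44 ± 0.31 (adjusted p = 4.47e-07 with limma) was the largest of the 8 genes, a 10.9-fold higher signal.

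Ifi30, the thiol reductase, gave 164.9, 200.1 and 174.3 in naive joints and 256.7, 281.6 and 183.2 without swelling. It gave 845.5, 543.4 and 1139.4 in mild, 1235.1, 1169.7 and 968.1 in moderate and 1296.4, 905.5 and 1292 in severe swelling. Its severe minus naive log2 difference was 2.58 ± 0.23 (adjusted p = 3.8e-07 with limma). For both enzymes no-swelling replicate 3 was the lowest of its group, while the arrays of the 3 swollen grades overlapped.

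Ciita, the coactivator on which the chain genes depend, was dim and gave 34, 21.6 and 21.9 in naive joints and 35.9, 26.6 and 25 without swelling. It gave 65.9, 44.1 and 60.4 in mild, 44.6, 65.8 and 57.7 in moderate and 57.6, 49.3 and 53.2 in severe swelling. Every swollen array lay above every unswollen one. The severe minus naive log2 difference was 0.74 ± 0.19 (adjusted p = 0.00353 with limma), 1.05 with a constant of 1 and 0.39 with 64. Its smaller size beside the chain genes was not tested as a difference between genes.

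Taken step by step, the 8 genes were called between no and mild swelling and at neither of the later steps. Mild swelling against no swelling gave 8 of 8 genes higher, where 23% of all tested genes were called higher, and the median log2 difference was 1.58 against 0.09 over all genes. Severe swelling against no swelling also gave 8 of 8 (33.1% of all genes called higher), as did a linear slope over the 4 CIA grades (33.6%), whose median was 0.51 log2 units per grade. CIA without swelling against naive gave 0 of 8 at an adjusted p under 0.05 in limma, with 1.52% of all genes called higher. At an unadjusted p under 0.05 stood 1 of the 8 genes, Ctss, beside 2704 of all 14314 tested genes in either direction. Moderate against mild swelling gave 0 of 8, with 3.3% of all genes called higher. There 0 of the 8 had an unadjusted p under 0.05, beside 3412 of all tested genes in either direction. Severe against moderate gave 0 of 8 and 0% of all genes, although 888 of all genes had an unadjusted p under 0.05 and none of the 8 genes did. Whether the steps differ from one another in size was not tested.

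**Figure D2:**
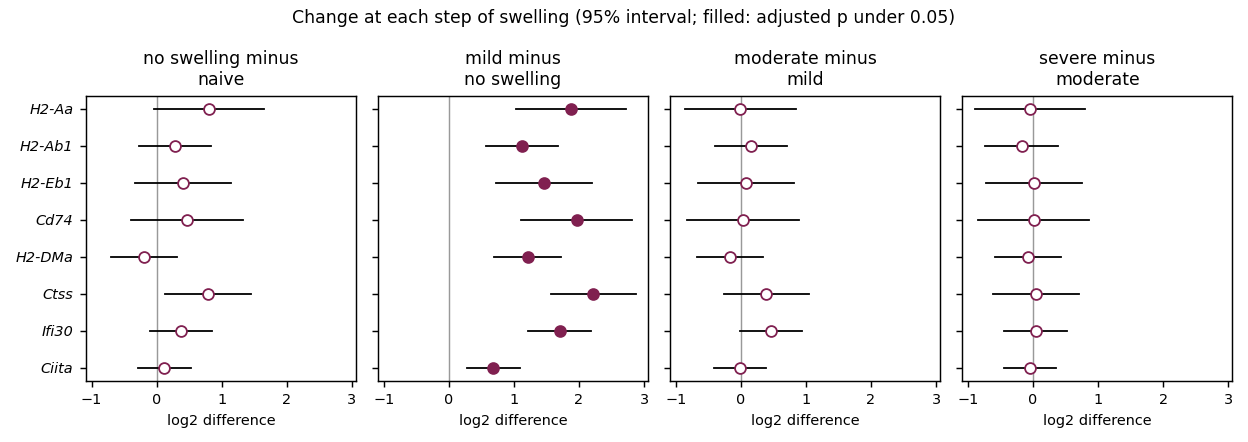
Log2 difference of 8 genes (horizontal axis, limma on log2(signal + 16), with 95% intervals) at each step between neighbouring grades. Filled points passed an adjusted p of 0.05: all 8 points between mild and no swelling are filled, from 0.68 for Ciita to 2.22 for Ctss, and none is filled in the other 3 panels.

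Between mild and no swelling the log2 differences were 2.22 ± 0.31 for Ctss, 1.96 ± 0.40 for Cd74, 1.88 ± 0.40 for H2-Aa and 1.70 ± 0.23 for Ifi30. They were 1.46 ± 0.35 for H2-Eb1, 1.21 ± 0.24 for H2-DMa, 1.13 ± 0.26 for H2-Ab1 and 0.68 ± 0.19 for Ciita, with adjusted p-values from 7.29e-05 to 0.00981 in limma. For all 8 genes the 3 mild arrays lay above the 3 arrays without swelling, as they did for 26.9% of all tested genes. Without mild replicate 1, Ciita no longer passed (0.59, adjusted p = 0.0506). Without no-swelling replicate 3, the array near naive, the Cd74 difference was 1.30, and all 8 genes were still called higher in mild swelling, as they were without mild replicate 2.

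CIA joints without swelling were uneven, and which class II genes stood above naive differed from array to array. By the brightest set of each gene, replicate 2 held the highest H2-Aa, H2-Ab1, Cd74, H2-DMa and Ifi30 signals of the 3. Replicate 1 held the highest H2-Eb1, Ctss and Ciita, and replicate 3 the lowest of every one of the 8. The second tested Ciita set had another order, at 14.7, 50.5 and 15 in replicates 1, 2 and 3. The differences from naive were 0.80 ± 0.40 for H2-Aa and 0.79 ± 0.31 for Ctss (adjusted p = 0.296 and 0.176 with limma). The H2-Aa sets next in brightness lay above naive on every array without swelling. They read 372.1 to 1058.8 against 345.9 to 359.3, and 134 to 193.3 against 98.1 to 123.6. The second tested Ciita set did so too (14.7 to 50.5 against 12.7 to 13.3). None of these sets was called (adjusted p = 0.0757, 0.171 and 0.371 with limma). The dimmest H2-Aa set and the other H2-Ab1 sets overlapped with naive. Without replicate 3, 3 of the 8 genes were called higher than naive: Ctss at 1.28 (adjusted p = 0.00617), Cd74 at 1.13 (adjusted p = 0.0358) and H2-Aa at 1.35 (adjusted p = 0.045). The summed macrophage markers described below were ordered over these 3 arrays as H2-Aa and Cd74 were (4231.2 in replicate 2, 3237.2 in replicate 1 and 1787.3 in replicate 3, against 2225.4 to 2512.8 in naive), and their part in these differences was not tested.

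Past mild swelling the intervals bound how much the genes could still have moved. Moderate minus mild was -0.01 for H2-Aa, with a 95% interval from -0.85 to 0.84, and 0.03 for Cd74, with an interval from -0.83 to 0.89. The largest difference at this step was in Ifi30, at 0.46 ± 0.23 (interval -0.02 to 0.94, adjusted p = 0.226 with limma), followed by Ctss at 0.39 ± 0.31. Ifi30 passed without mild replicate 3, at 0.71 (adjusted p = 0.0409 with limma). With 1 array left out its difference ran from 0.19 to 0.71, with adjusted p up to 0.742. Without mild replicate 2, the differences of Cd74 (-0.16), H2-Ab1 (-0.12) and H2-Eb1 (-0.16) turned sign and were not called. Severe minus moderate ranged from -0.18 (H2-Ab1) to 0.04 (Ctss), and the interval for Ciita, the narrowest, ran from -0.45 to 0.36.

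Several probe sets read the same gene, and their sizes differed. Of the 16 sets, 14 passed the filter on low signals. The dimmest H2-Aa set lay above the array's 40th percentile on 6 of 15 arrays, the H2-Eb1 set on 10 and the 2 tested Ciita sets on 12 and 10, so a count of calls over the sets that passed is no separate support. Of the 2 sets under the filter, the second H2-DMa set read 1.5 to 3.6 in severe swelling and 1.4 to 10.1 in naive joints, and the third Ciita set 2.7 to 21.9 in severe swelling and 0.8 to 3.9 in naive joints, so both overlapped. The 4 sets of H2-Aa gave log2 differences of 2.62, 1.86, 1.30 and 0.91, from the brightest to the dimmest. For H2-Ab1 the brightest set gave the smallest difference, 1.39, and the other 2 gave 2.33 and 2.74, with severe means between 795 and 838 in all 3 sets and naive means of 148 and 111, against 288 in the brightest set. The second tested Ciita set gave 1.45 ± 0.26 in severe swelling against naive, with a mean of 63.1 ± 5.98 in severe and 13 ± 0.31 in naive joints (SD, n = 3 each), but 0.60 (adjusted p = 0.0857 with limma) in mild swelling against no swelling, where the brightest set passed. Probe sets whose name ends in _s_at, _x_at or _a_at can read related transcripts, and the 3 H2-Ab1 sets and 4 H2-Aa sets are all of this kind.

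**Figure D3:**
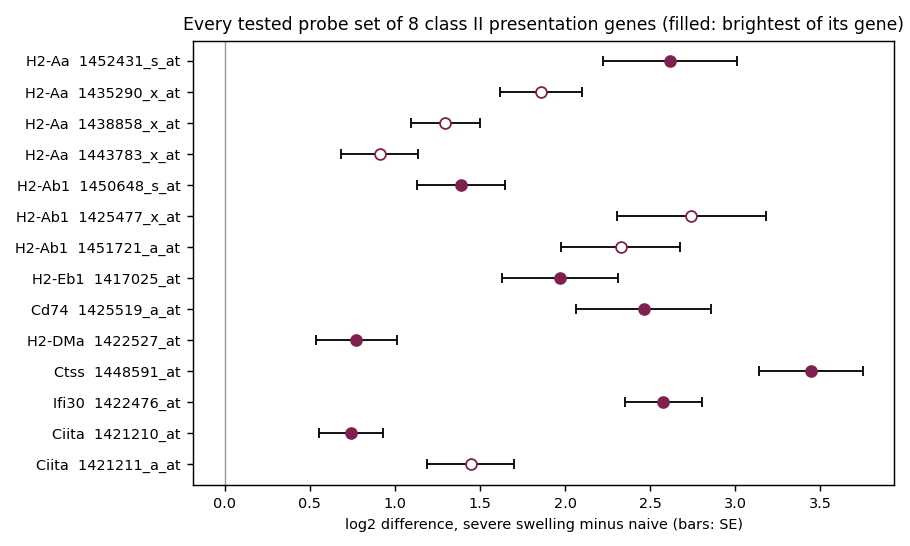
Log2 difference of severe swelling minus naive (horizontal axis, limma on log2(signal + 16), bars are SE) for each of the 14 tested probe sets; filled points are the brightest set of their gene. The sets of H2-Aa (0.91 to 2.62) and H2-Ab1 (1.39 to 2.74) spread by more than their SE.

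The rest of the pathway was described with gene lists, chosen with earlier results of these data known, and each list is given by its counts in severe swelling against naive. In that comparison 32.3% of all tested genes were called higher and 22.9% lower. In mild swelling against no swelling 23% were called higher, and 2230 of the 14314 genes lower. Among 5 other class II chain genes, 4 rose and H2-DMb2, the near copy of H2-DMb1, did not pass, with a median log2 difference of 1.18 against 0.11 over all genes. H2-Ea, the alpha chain of H2-E, differed by 1.83 ± 0.28 (adjusted p = 4.02e-05 with limma), H2-Ob, a chain of the H2-DM inhibitor H2-O, by 1.20 ± 0.27 and the beta chain gene H2-Eb2 by 1.18 ± 0.31. The probe set annotated to H2-DMb2 alone, named after its value was seen, differed by 0.06 ± 0.23 (adjusted p = 0.859 with limma), with the sign turned under both other scalings. H2-Oa, the partner of H2-Ob (0.75, adjusted p = 0.0465), named after its value was seen, lost its call when arrays were quantile normalized or aligned on their medians. These scalings shifted the median of all genes in this comparison by -0.11 and -0.16.

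The endosomal proteases rose in 7 of 7 cases, with a median of 1.52. Ctsk, best known as the collagenase of osteoclasts, differed by 4.37 ± 0.35, Lgmn, the asparaginyl endopeptidase, by 3.38 ± 0.27 and the aminopeptidase Ctsh by 2.66 ± 0.28 (adjusted p from 1.67e-07 to 1.71e-06 with limma). In mild swelling against no swelling 5 of the 7 rose, among them Lgmn by 2.30 and Ctsk by 2.36, and in CIA without swelling against naive 0 of 7 were called. With array medians aligned, 6 of 7 were called in severe swelling.

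Of 7 factors that seat Ciita on the promoter, 2 rose, 3 fell and 2 did not pass, where 32.3% of all tested genes were called higher and 22.9% lower. Their median of 0.16 was close to the 0.11 of all genes, so nothing is read from the counts of the list. Nfya, a subunit of NF-Y, which binds the Y box, rose by 1.07 ± 0.17 on the log2 scale (adjusted p = 6.79e-05), while the other NF-Y subunits fell, Nfyb by 0.71 ± 0.20 (adjusted p = 0.00652) and Nfyc by 0.41 ± 0.11 (adjusted p = 0.00495, limma throughout). Of the RFX complex, which binds the X box, Rfx5 rose by 0.50 ± 0.11 and Rfxap fell by 0.66 ± 0.14. The counts were the same under both other scalings. In mild swelling against no swelling Nfya was higher (1.06), Rfxap (-0.55) and Nfyc (-0.33) were lower, and 4 of 7 did not pass.

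Of the interferon gamma axis, the best known inducer of Ciita, 7 genes were tested, and 4 rose, 2 fell and 1 did not pass, with a median of 0.69. Ifng itself, the cytokine, lay below the signal filter. The receptor chains moved apart: Ifngr1, the ligand-binding chain, rose by 1.47 ± 0.16 (adjusted p = 2.5e-06) and Ifngr2, the accessory chain, fell by 1.10 ± 0.13 (adjusted p = 5.84e-06 with limma). The kinase gene Jak1 fell by 0.56 ± 0.13, and the transcription factor gene Irf8 rose by 1.18 ± 0.17. Against no swelling, mild swelling showed Ifngr1 higher (1.17) and Ifngr2 lower (-1.14) as well.

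Genes that act on the class II molecule at the cell surface were called in part. Of 3 genes of its turnover, 2 rose: Marchf1, the ubiquitin ligase that removes class II from the surface, by 1.66 ± 0.28 and Cd83, which opposes it, by 0.58 ± 0.24 (adjusted p = 0.0498 with limma, a call lost under both other scalings), while Marchf8 differed by -0.15 and did not pass. Of 6 costimulation genes, 2 rose, a share close to that of all genes (32.3%), namely the ligand genes Cd86 (0.96 ± 0.20) and Icosl (0.65 ± 0.18), and 4 did not pass, including Cd274, the gene of PD-L1 (0.46 ± 0.20, adjusted p = 0.0651). Cd4, the receptor that binds class II, differed by 0.85 ± 0.33 (adjusted p = 0.0389 with limma, lost with array medians aligned), and Lag3 lay below the filter. Cd4 passed the filter only through moderate and severe arrays, so its call is no separate support. The class I pathway, which presents peptides of the cell's own proteins, rose in 9 of 9 cases with a median of 1.27, such as the transporter gene Tap1 (1.91 ± 0.20), the immunoproteasome gene Psmb8 (1.51 ± 0.18) and Tapbp (1.11 ± 0.15). The difference between the class I and class II lists was not tested.

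Markers of cell types that carry class II, and of other cell types, were read on the same arrays, and their lists differed in how many members were called. In severe swelling against naive, 32.3% of all tested genes were called higher and 22.9% lower. All 10 macrophage markers rose in severe swelling against naive, with a median log2 difference of 2.41, among them the scavenger receptor gene Msr1 (2.64 ± 0.24), Trem2 (3.61 ± 0.34) and Cd68 (2.61 ± 0.26). Trem2 read 5.5 to 7.1 in naive joints. It passed the filter only through swollen arrays and no-swelling replicate 2, so its call is no separate support. The summed signal of the 10 markers was 2225.4 to 2512.8 in naive joints, 1787.3 to 4231.2 without swelling, 7016.2 to 9302.4 in mild, 7489.6 to 9649 in moderate and 7891.9 to 11244.4 in severe swelling. The macrophage count was 9 of 10 with quantile normalization and 8 of 10 with array medians aligned. No marker of any list was at 0 on all arrays.

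Dendritic cell markers rose in 3 of 7 tested cases, Itgax (2.0 ± 0.24), Batf3 (0.49 ± 0.17) and Cd83, and in 1 of 7 under both other scalings; the other 4 did not pass, among them Siglech (-0.33) and Cd209a (-0.18), named after their values were seen, and the median was 0.22 against 0.11 over all genes. Of 10 dendritic cell markers 9 were measured, Clec9a was not analysed here, and their sum was 585.1 to 719.9 in severe swelling against 393.4 to 451.8 in naive joints. Most of that rise lay in Itgax alone, at 143.8 to 222 in severe swelling against 24.8 to 49.9 in naive joints. B cell markers rose in 1 of 5 tested cases, Blk (0.79 ± 0.27), a call lost under both other scalings, and Pax5 (0.43) and Cd79a (-0.33) did not pass; 8 were measured, and the sum was 239.8 to 263.9 in naive joints, 239.3 to 326.4 in mild and 271.7 to 336 in severe swelling. T cell markers rose in 3 of 5 tested cases, Cd5 (1.48 ± 0.28), Cd3g (1.11 ± 0.29) and Cd4, and in 2 of 5 with array medians aligned. In naive joints Cd4 read 3.2 to 7.9 and Cd5 4.8 to 7.2. Both passed the filter only through moderate and severe arrays, so their calls are no separate support. Lck was not analysed here, and the T cell sum was 167.5 to 285.9 in severe swelling against 91.9 to 178.8 in naive joints. With 32.3% of all tested genes called higher in severe swelling against naive, nothing is read from the dendritic cell and B cell counts. The part of the macrophage, dendritic cell, B cell and T cell lists in the class II differences was not tested.

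Neutrophil markers rose in 5 of 5 cases (Csf3r by 4.86 ± 0.29), with sums of 80.8 to 96.7 in naive joints, 363.2 to 2400.7 without swelling and 8703.5 to 12042.9 in severe swelling. Cxcr2 read 3.7 to 8.9 in naive joints and passed the filter only through swollen arrays. Clec4d (18.9 to 23.6 in naive joints) and S100a9 (15.2 to 20.8, named after its values were seen) passed only through CIA arrays. The calls of these genes against naive are therefore no separate support. In CIA without swelling against naive, 1.52% of all tested genes and 0 of the 8 class II genes were called higher. At that step 4 of the 5 neutrophil markers were called higher. Among the arrays without swelling, their summed signal was 2400.7 in replicate 1, 894.5 in replicate 2, the array with the most H2-Aa and Cd74, and 363.2 in replicate 3. Whether the 2 sets of genes differ at that step was not tested. The synovial fibroblast markers rose in 6 of 6 cases (5 of 6 under both other scalings), including Prg4, the lubricin gene of the joint lining (1.88 ± 0.23), with sums of 20316.9 to 29464.3 in severe swelling against 5350.9 to 5922.4 in naive joints. The tissue also held muscle and fat: summed muscle markers were 74233.8 to 88771.9 in naive joints, 92010.9 to 93134.1 without swelling, 58777.9 to 62721.4 in mild, 40950 to 67116.9 in moderate and 62457 to 87756.8 in severe swelling, so severe and naive joints overlapped. In severe swelling against naive 2 of 8 muscle markers fell, Pygm by 0.80 and Mylpf by 0.42 (4 of 8 fell under both other scalings), near the 22.9% of all genes. In mild swelling against no swelling 8 of 8 fell, where 2230 of all 14314 tested genes were called lower. Of 5 measured adipocyte markers, 4 fell in severe swelling against naive (5 of 5 with array medians aligned), with sums of 4409.2 to 6534 in severe swelling and 8857.6 to 12066.1 in naive joints. Endothelial markers rose in 2 of 6 cases in severe swelling against naive, Pecam1 (0.99 ± 0.14) and Emcn (0.95 ± 0.15), close to the 32.3% of all genes. In mild swelling against no swelling 3 of 6 rose, where 23% of all genes were called higher. The endothelial sums were 1848.4 to 2134.1 in severe swelling and 1289.3 to 1478.8 in naive joints. Of 3 erythroid markers measured out of 5, 1 fell in severe swelling against naive, Alas2 by 1.51 ± 0.37 (adjusted p = 0.00237 with limma), with sums of 39.2 to 59.2 in severe swelling and 124.2 to 149.2 in naive joints. Their part in the class II differences was not tested.

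**Figure D4:**
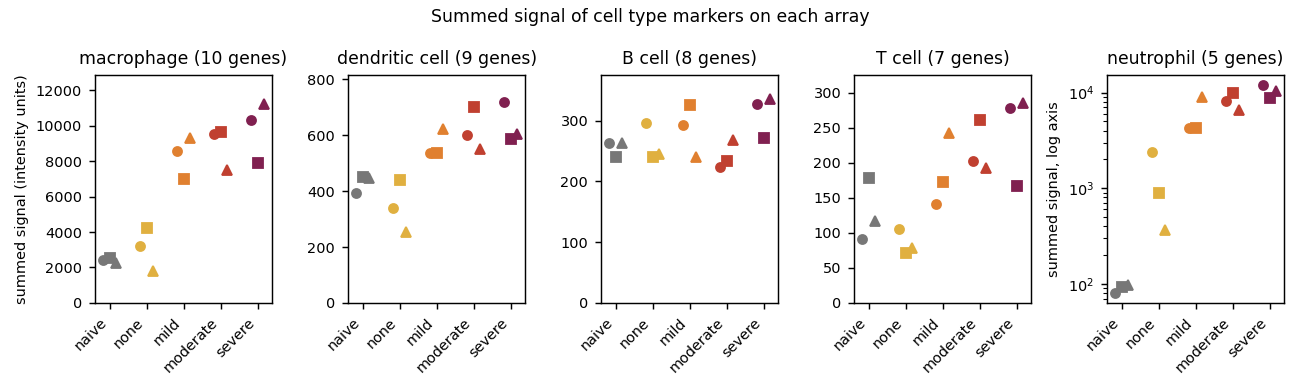
Summed signal of cell type markers on each of the 15 arrays by grade of swelling, in intensity units on linear axes from 0, except the neutrophil panel, which has a log axis. Circles, squares and triangles are replicates 1, 2 and 3; macrophage sums are 7016.2 or more in swollen joints and 4231.2 or less in the others, while B cell sums overlap between mild swelling and naive joints.

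The brightest probe set of each gene was set within each array against the mean log2 signal of the 10 macrophage markers. Ctss, Ifi30, H2-Aa and Cd74 lay higher in severe swelling than in naive joints, H2-DMa, Ciita and H2-Ab1 lay lower, and H2-Eb1 overlapped. These values are described without a test, and only their change between groups can be read, since probe sets differ in brightness. Ctss stood 2.48 to 2.91 log2 units above the macrophage mean in severe swelling against 1.36 to 1.40 in naive joints, and Ifi30 0.86 to 0.98 against 0.32 to 0.52. H2-Aa (1.46 to 1.69 in severe swelling against 0.94 to 1.43 in naive) and Cd74 (2.07 to 2.12 against 1.51 to 2.01) also lay higher, by narrow margins. The other H2-Aa probe sets rose by 1.86, 1.30 and 0.91 in severe swelling against naive, less than the 2.62 of the brightest set. The place of H2-Aa beside the macrophage markers therefore depends on the probe set.

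H2-Eb1 overlapped, at -2.47 to -2.26 in severe swelling and -2.49 to -1.83 in naive joints. H2-DMa lay lower, at -1.98 to -1.95 in severe swelling against -0.84 to -0.42 in naive, as did Ciita, at -3.38 to -2.95 against -2.01 to -1.53, and H2-Ab1, at 0.20 to 0.58 against 0.89 to 1.21. The added constant of 16 compresses dim signals such as those of H2-Eb1, whose severe minus naive difference was 2.77 with a constant of 1, and its place beside the macrophage markers with another constant was not computed. For H2-Ab1 the other 2 probe sets rose by 2.33 and 2.74, against 1.39 in the brightest set used here, so its place depends on the probe set.

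**Figure D5:**
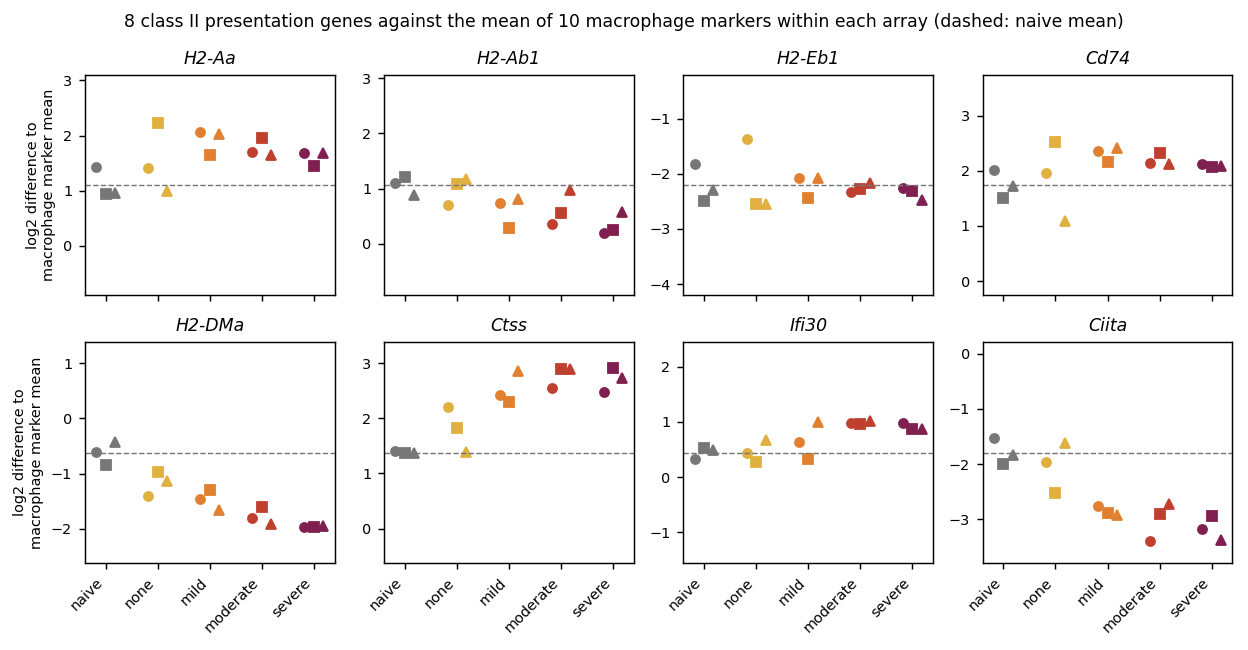
Log2(signal + 16) of 8 genes minus the mean of 10 macrophage markers on the same array (vertical axis, 4 log2 units in each panel) by grade of swelling, with circles, squares and triangles for replicates 1, 2 and 3 and a dashed line at the naive mean. Ctss and Ifi30 lie above their naive values in severe swelling, H2-DMa, Ciita and H2-Ab1 below, and H2-Eb1 overlaps.

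The 8 genes followed one another over the arrays. Over 15 arrays, which share the 5 groups, Pearson r between pairs of the genes ran from 0.80 (H2-DMa with Ciita) to 0.99 (H2-Aa with Cd74), with a median of 0.93 over 28 pairs. After each group's mean was taken away, the median r was 0.66. H2-Aa had r of 0.97 with Cd74 and 0.88 with H2-DMa, so H2-Aa and Cd74 moved together between replicates. Ciita followed them less closely (0.40 with H2-Aa and 0.37 with Cd74), and had r of 0.69 with H2-Eb1. Ciita and H2-Eb1 are dim, and the part of that in these values was not tested. Outside the 8 genes, the patterns most like the mean of H2-Aa, H2-Ab1, H2-Eb1 and Cd74 were those of Clec4a3 (r = 0.99), Fcgr2b (0.99), Cybb (0.99), Tmem106a (0.99) and Clec4a2 (0.99). Those most like Ctss were Tyrobp, Ms4a7, Ptprc, Arpc5 and Lgmn, with r from 0.99 to 1.0. Fcgr2b encodes an inhibitory receptor for antibody, Cybb a subunit of the phagocyte oxidase, Tyrobp a signalling adaptor of myeloid cells and Ptprc the leukocyte antigen CD45. These correlations are a description over 15 arrays, which fall into swollen and other joints and are not independent of that split.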

How the data were processed

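Total RNA of knee synovium was hybridized to Affymetrix arrays. The deposited table gives 1 linear intensity per probe set (45101) and array (15). The authors made it with MAS5, as the submitters' processing notes name the tool (version not given in the sources used here). Their mean, trimmed by 2% at each end, was 150 on every array, so no further scaling was applied. Gene symbols come from the platform annotation in GEO, possibly outdated: 34945 had 1 gene symbol, 932 several and 9224 none; 13 named control sets were left out, and 34741 matched the RefSeq gene table. A gene was represented by its single-symbol probe set of highest mean, and 14314 genes above the array's 40th percentile on at least 3 arrays were tested.

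Groups were taken from sample titles and source names. Signals were taken as log2(signal + 16), which understates changes of dim genes. One model of group means over all 15 arrays was fitted with limma 3.58.1 in R 4.3.3 (10 residual and 5.52 prior degrees of freedom, intensity trend), for 9 comparisons, two-sided, with Benjamini-Hochberg adjustment over all genes and calls under 0.05. An exact permutation test of 3 against 3 arrays cannot go below p = 0.1. The slope scored the CIA grades 0 to 3. Replicate numbers did not pair arrays: deviations of same-numbered arrays correlated at -0.506 to 0.334, and 5 of 30 pairs exceeded 0.1. The steps were tested on simulated data.

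The 9 genes and all lists were chosen with earlier results of these data known. Text names all of the 9 genes; in other lists, up to 3 genes with the lowest p in severe swelling against naive, those called lower and those absent (2 listed genes are not reported here); and the 5 genes of highest r. The alternatives were constants of 1 and 64, no filter or a 60th percentile filter, 2 other scalings, averaging the probe sets of a gene, no trend, only the groups compared, a replicate block, array quality weights and each array left out. Promoter sequences are RefSeq's (GRCm38.p6). Sequence of Cd74, H2-Ab1 and Ciita is not shown.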

Additional observations from a re-analysis of the deposited data

Results flagged for a closer look

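Probe sets listed with both H2-DMb2 and H2-DMb1 were outside the comparisons above, because they carry more than 1 gene symbol, yet they carried signal above the naive arrays. The first had a mean of 67.2 ± 11.2 in severe swelling and 16 ± 15.4 in naive joints (SD, n = 3 each), a log2 difference of 1.47 ± 0.35 (adjusted p = 0.00231 with limma over all tested probe sets), and it was also higher in mild than in no swelling (1.12, adjusted p = 0.0228). The second had a mean of 177.8 ± 49.6 in severe swelling and 68.1 ± 12.3 in naive joints, a difference of 1.18 ± 0.40 (adjusted p = 0.023), and did not pass in mild swelling against no swelling (0.43, adjusted p = 0.455). The probe set annotated to H2-DMb2 alone differed by 0.06 ± 0.23 in severe swelling against naive (adjusted p = 0.859 with limma) and by 0.13 (adjusted p = 0.705) in mild against no swelling. How much of the signal of the shared sets comes from either gene was not tested. With 3 arrays per group, single arrays were not screened for outlying values.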

How the results depend on the processing

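No result changed to a called difference in the opposite direction. Of 855 log2 differences under the planned settings, 831 kept both their sign and their side of the threshold, whatever their change in size. Another 5 lost and 1 gained a call, and 18 changed sign without being called either time. Of 1080 with one array left out, 1041 kept sign and side, 3 lost and 4 gained a call, and 32 changed sign uncalled. The 8 genes were called higher in 7 or 8 cases in each comparison that called all 8: 7 with the 60th percentile filter, which dropped Ciita. Ciita lost its call with quantile normalization and with array medians aligned in severe against no swelling (0.44 and 0.42, adjusted p = 0.055 and 0.0669 with limma) and for the slope (0.13 under both, 0.0684 and 0.0803); without no-swelling replicate 3 the slope was 0.17 (0.0509). The mean of probe sets gave 1.67 for H2-Aa and 2.15 for H2-Ab1 in severe swelling against naive.

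For CIA without swelling against naive, the count of all genes called was 469, 309 with quantile normalization, 290 without the trend, 1169 with array quality weights and 122 to 704 with one array left out, and the count of the 8 genes was 0 to 3. For moderate against mild it was 964, 12 with only the groups compared, 4572 with array weights and 197 to 2032 with one array left out, and the count of the 8 genes was 1 with array weights (Ifi30 0.39, adjusted p = 0.0307) and 0 to 1 with one array left out. Mild against naive gave 9287 genes with array weights against 5743, and severe against moderate 0 to 2 with one array left out. The estimate of the array weights did not converge. The replicate block left 296 genes in CIA without swelling against naive and changed no call of the 8 genes; 0 of 15 arrays correlated best with an array of their own number. Depth cannot be read from intensities; signals near the dim end limit H2-Eb1 and Ciita.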
